A study of Mus musculus with 8 samples.

Results

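The nuclear genes for subunits of mitochondrial complex I were described in mouse regulatory T cells (Tregs) polarized in culture and exposed to the drug BMS309403. The members are 35 genes given by symbol, and all 35 were found among the 53465 gene IDs of the files and had enough reads to be tested, within 14443 tested genes. Of the 35, 6 encode core subunits, which belong to the catalytic machinery shared with bacteria, and 29 encode accessory subunits. Other nuclear subunits of the complex were not analysed here, and the subunits encoded by mitochondria are set beside the members below.

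The treated group was wild-type C57BL/6 Tregs given 50 µM BMS309403 (n = 4), and the control group was the same kind of culture without the drug (n = 4). BMS309403 is a small molecule that occupies the lipid-binding pocket of the proteins that ferry fatty acids in the cytosol, and the study used it against FABP5. Both groups began as total CD4+ T cells, not naive cells alone, taken from spleen and lymph nodes by positive selection. They were held for 72 h on 5 µg/mL of bound anti-CD3 in medium with 5 ng/mL of TGF-β, 100 U/mL of IL-2 and 0.5 µg/mL of anti-CD28, and IL-4, IL-12 and IFN-γ were blocked by antibodies at 10 µg/mL. The cultures were then divided and kept with or without the drug, for a time that the labels do not give. The labels name no vehicle, so the effects of blocking FABP5, of other actions of the drug and of a solvent cannot be told apart.

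Complex I oxidises NADH made by the citric acid cycle and other pathways, passes the electrons to ubiquinone, and pumps protons out of the mitochondrial matrix. It is L-shaped: a peripheral arm in the matrix holds the N module, where NADH gives up its electrons, and the Q module, where ubiquinone is reduced, and a membrane arm in the inner membrane holds the proton channels. The arm's central channel proteins are encoded in mitochondrial DNA, and the nuclear members described here surround or complete them. Tregs are known to lean on mitochondrial respiration more than effector T cells do.

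Total counts lay between 38.7 and 42.6 M reads in treated libraries and between 32.9 and 44.6 M in control libraries. The Treg marker Foxp3 averaged 1247 ± 15.3 CPM in treated and 950.0 ± 55.6 CPM in control libraries (SD, n = 4), where CPM is a gene's reads scaled to the TMM-adjusted library total. Of the 7 Treg and T cell genes of the marker list, Foxp3, Il2ra and Ikzf2 rose (log2 fold changes of 0.39, 0.41 and 0.83), the T cell receptor complex chains Cd3e and Cd3d fell (-0.46 and -0.36), and Ctla4 and Cd4 were not called (0.06 and -0.06). Of the 5 B cell markers, Ighm averaged 283 and 379 CPM in treated and control libraries, and Cd79a, Cd79b, Ms4a1 and Pax5 lay under 3 CPM. The summed CPM of the 5 B cell markers ranged from 275 to 295 in treated and from 342 to 433 in control libraries. Of the 6 myeloid markers the sum ranged from 0.858 to 3.23 and from 1.90 to 3.48 CPM, of the 5 dendritic markers from 7.84 to 11.4 and from 3.75 to 4.17 CPM, and of the 5 NK and CD8 markers from 13.04 to 17.7 and from 11.4 to 15.9 CPM, in treated and control libraries. Ncr1 (NK cells), Hbb-bs (red cells) and Ppbp (platelets) had 0 counts. Among these markers Ighm and Cd79b fell, as did the myeloid gene Adgre1 (0.137 CPM in treated and 0.565 CPM in control libraries), and Zbtb46 of the dendritic and Eomes of the NK and CD8 list rose; the part of these changes in the results was not tested. The libraries are of bulk RNA, in which fewer cells of a type and less RNA per cell cannot be told apart.

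Nuclear complex I messenger RNAs were mostly a little lower with BMS309403. Of the 35 members, 16 fell and 0 rose at an adjusted p under 0.05 by edgeR's quasi-likelihood test, while over all tested genes 36.8% were called, 18.1% as lower and 18.7% as higher. The fitted log2 fold change of treated over control was below 0 for 32 members, against 49.0% of all tested genes. The members' median was -0.16, their range was -0.50 to 0.06, and the median of all tested genes was 0.01. The 4 treated libraries lay wholly below the 4 control libraries for 11 members and wholly above for 0, while over all tested genes 16.1% lay wholly below and 17.7% wholly above. With the replicate number of the titles as a block, 27 members fell and 0 rose, beside 25.8% and 26.6% of all tested genes (52.4% called in all). The falls were small: only Ndufb2 and Ndufv3 passed a test for a change of more than 1.2-fold, in which 4.89% of all tested genes were lower and 6.06% higher.

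**Figure D1:**
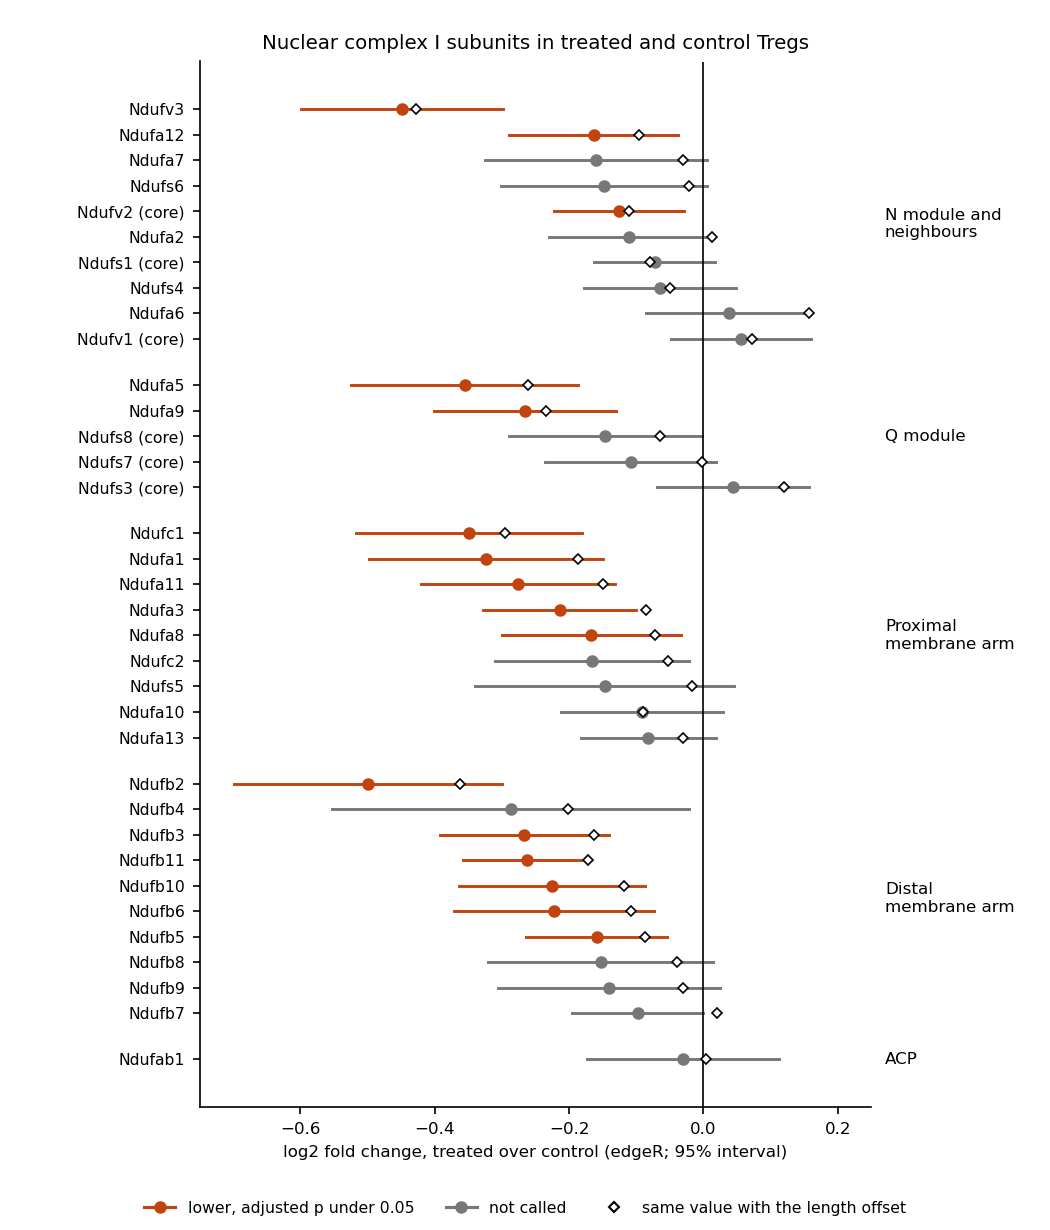
Log2 fold change (horizontal axis) of treated over control for each of the 35 members, grouped by their place in the complex; circles are fitted values, bars are 95% intervals (n = 4 libraries a group), and open diamonds are the values after a correction for transcript length. The 16 members that fell are in orange, Ndufb2 and Ndufv3 lie farthest left, and 3 members lie to the right of 0.

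The promoters of the members that passed the 1.2-fold test, and of the first in order of change with a searched motif, show the start regions of the genes that the results turn on. They were taken from RefSeq (GRCm38.p6), 250 bases before to 50 after the annotated start, in which 32 of the 35 members matched an entry. They are written 5′ to 3′ on the gene's strand, with a motif match in capitals: Ndufb2 at chr6:39592315-39592614 on the plus strand, Ndufv3 at chr17:31519865-31520164 on the plus strand and Ndufc1 at chr3:51408906-51409205 on the minus strand.
Ndufb2: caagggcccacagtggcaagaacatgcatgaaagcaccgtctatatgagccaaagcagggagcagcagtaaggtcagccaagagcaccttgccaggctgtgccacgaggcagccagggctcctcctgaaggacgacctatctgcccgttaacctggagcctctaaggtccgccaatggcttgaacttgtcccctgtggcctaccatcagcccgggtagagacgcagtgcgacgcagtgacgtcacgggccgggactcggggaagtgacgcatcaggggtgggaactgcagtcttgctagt
Ndufv3: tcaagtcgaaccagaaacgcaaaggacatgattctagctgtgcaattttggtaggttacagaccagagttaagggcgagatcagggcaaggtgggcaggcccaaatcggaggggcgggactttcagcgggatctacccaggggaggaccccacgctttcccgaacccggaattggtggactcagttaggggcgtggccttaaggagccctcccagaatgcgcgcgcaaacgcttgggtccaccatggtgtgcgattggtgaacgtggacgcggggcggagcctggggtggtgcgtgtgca
Ndufc1: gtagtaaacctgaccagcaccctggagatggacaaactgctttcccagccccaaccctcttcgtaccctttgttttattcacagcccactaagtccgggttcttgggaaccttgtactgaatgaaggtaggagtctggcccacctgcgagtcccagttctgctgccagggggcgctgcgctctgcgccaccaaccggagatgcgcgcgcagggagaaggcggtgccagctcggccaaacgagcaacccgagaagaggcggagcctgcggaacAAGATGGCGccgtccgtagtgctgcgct

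Motifs of 4 factors known to act at promoters of respiratory chain genes were searched on both strands. The YY1 letters AAGATGGCG stood in 5 of the 32 members with a window (15.6%), in 1.4% of all 32851 promoter windows and in 3.58% of the tested genes with a window. The 5 were Ndufc1 and Ndufa9, which fell, and Ndufs6, Ndufs7 and Ndufs4, which were not called. The stretches around the motif are shown because they hold the same letters at nearly the same place, 23 to 36 bases after the start, in genes of different modules. In all 5 the ATG inside the motif was the start codon annotated in GENCODE M21. The motif's letters from the ATG on are thus also coding sequence, and the AAG before it is not. Capitals mark the motif, and the positions are chr3:51408914-51408943 (minus strand), chr6:126849096-126849125 (minus), chr13:73328433-73328459 (minus), chr10:80249463-80249492 (plus) and chr13:114388045-114388069 (minus).
Ndufc1: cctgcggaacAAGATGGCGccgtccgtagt
Ndufa9: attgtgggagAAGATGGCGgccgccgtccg
Ndufs6: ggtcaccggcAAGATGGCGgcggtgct
Ndufs7: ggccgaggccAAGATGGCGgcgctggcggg
Ndufs4: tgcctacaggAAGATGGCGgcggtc

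The NRF1 letters CGCATGCG, which read the same on both strands, stood in 2 members (6.25%), in 1.87% of all windows and in 4.34% of the tested genes with a window. Both members fell: Ndufa11, with the motif 59 bases before the start (chr17:56717692-56717721, plus strand), and Ndufa8, with it 9 bases before the start (chr2:36049329-36049358, minus strand). The ETS and GABP letters CCGGAAGT stood in Ndufs3 alone (3.12% of members, 3.89% of windows, 9.36% of tested genes), and the ERR letters TCAAGGTCA in 0 members (0.423% of windows, 0.326% of tested genes). None of the 4 motifs overlapped another in these windows, 24 of the 32 members held none, and a match says only that the letters are there.
Ndufa11: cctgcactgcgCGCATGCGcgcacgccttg
Ndufa8: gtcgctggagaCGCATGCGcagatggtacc

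The N module and its neighbours at the tip of the peripheral arm had 10 members, with a median log2 fold change of -0.12. Of the 10, 3 (30.0%) fell and 0 rose, beside 18.1% lower and 18.7% higher of all tested genes. Ndufv3 (ENSMUSG00000024038, chr17:31520115-31531331 in GRCm38, plus strand) is a small accessory subunit bound beside the NADH-oxidising pair. Its level was 64.6, 63.9, 73.9 and 60.0 CPM in treated libraries 1 to 4, against 91.6, 93.3, 93.5 and 79.7 CPM in control libraries 1 to 4. All treated libraries lay below all control libraries, and control library 4 was the lowest of its group by a wide gap. The change was a 1.36-fold fall (log2 fold change -0.45, SE 0.07, edgeR adjusted p = 0.000371). Ndufa12, an accessory subunit at the junction of the N and Q modules, had 46.8, 40.0, 44.9 and 43.3 CPM in treated libraries, against 52.3, 47.3, 49.9 and 46.6 CPM in control libraries. Treated library 1 lay above control library 4, and the fall was 1.12-fold (log2 fold change -0.16, SE 0.06, edgeR adjusted p = 0.0426). A processed pseudogene, Gm15920, matched 402 bases of the Ndufa12 transcript at 99.5% and held 982 counts beside 14436 for Ndufa12, so reads of the pair may be split.

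Of the N module's core subunits 1 of 3 fell, beside 18.1% of all tested genes. Ndufv2, which carries an iron-sulfur cluster, had 90.9, 86.4, 93.2 and 89.4 CPM in treated libraries, against 101, 95.4, 103 and 93.3 CPM in control libraries. Treated library 3 was just below control library 4, and the fall was 1.09-fold (log2 fold change -0.13, SE 0.04, edgeR adjusted p = 0.0434). Ndufv1, which binds NADH and the flavin that takes its electrons, had 106, 103, 109.6 and 103 CPM in treated and 108, 101, 103 and 93.9 CPM in control libraries. Ndufs1, the largest subunit of the complex with several iron-sulfur clusters, had 96.0, 91.4, 86.7 and 92.4 CPM in treated and 99.2, 96.1, 94.9 and 95.3 CPM in control libraries. The groups overlapped for both, and neither was called: the log2 fold change was 0.06 for Ndufv1 (95% interval -0.05 to 0.16, edgeR adjusted p = 0.383) and -0.07 for Ndufs1 (-0.16 to 0.02, adjusted p = 0.184). The other accessory members, Ndufa7, Ndufs6, Ndufa2, Ndufs4 and Ndufa6, were not called and had log2 fold changes of -0.16, -0.15, -0.11, -0.06 and 0.04; Ndufs4 and Ndufs6 are needed for late steps in joining the N module.

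In the Q module, 2 of 5 members fell and 0 rose, beside 18.1% and 18.7% of all tested genes. The median was -0.15, and both members that fell were accessory. Ndufa5 (ENSMUSG00000023089, chr6:24518666-24528013, minus strand), which sits on the side of the peripheral arm, had 21.0, 17.6, 18.3 and 17.4 CPM in treated libraries, against 26.4, 23.9, 22.8 and 21.8 CPM in control libraries. Ndufa9 (ENSMUSG00000000399, chr6:126821721-126849136, minus strand), which lies near the entrance of the ubiquinone channel, had 96.2, 83.3, 94.4 and 81.4 CPM in treated libraries, against 113, 104, 109.8 and 100.0 CPM in control libraries. The groups did not overlap for either gene, and treated libraries 2 and 4 were the lowest for both. Ndufa5 fell 1.28-fold (log2 fold change -0.36, SE 0.08, edgeR adjusted p = 0.00376) and Ndufa9 fell by 16.8% (log2 fold change -0.26, SE 0.06, adjusted p = 0.00579).

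The Q module's core subunits were not called. Ndufs7 and Ndufs8 carry the last iron-sulfur clusters before ubiquinone. Ndufs7 had 56.0, 51.4, 54.0 and 48.7 CPM in treated and 60.1, 56.7, 58.0 and 51.6 CPM in control libraries. Ndufs8 had 51.9, 46.5, 53.8 and 43.1 CPM in treated and 55.4, 54.5, 54.8 and 51.4 CPM in control libraries. Ndufs3, a scaffold that joins the assembling module early, had 73.0, 74.8, 72.2 and 66.5 CPM in treated and 73.4, 68.1, 71.7 and 64.7 CPM in control libraries. The groups overlapped for each, though for Ndufs7 and Ndufs8 each treated library lay below the control library of its own number. The log2 fold changes were -0.11 for Ndufs7 (95% interval -0.24 to 0.02, edgeR adjusted p = 0.167), -0.15 for Ndufs8 (adjusted p = 0.104) and 0.04 for Ndufs3 (95% interval -0.07 to 0.16, adjusted p = 0.538). With the replicate block in edgeR's model Ndufs7 and Ndufs8 fell (adjusted p = 0.0128 and 0.00646), and Ndufs3 was not called (0.293).

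The proximal membrane arm, next to the joint with the peripheral arm, had 5 of 9 members lower and 0 higher, with a median of -0.17. Of all tested genes 18.1% were lower and 18.7% higher. Ndufc1 (ENSMUSG00000037152, chr3:51404677-51408988, minus strand), a small subunit with a single membrane span, had 20.2, 19.2, 21.3 and 18.2 CPM in treated libraries, against 27.7, 23.5, 26.8 and 22.6 CPM in control libraries. Ndufa1 (ENSMUSG00000016427, chrX:37187588-37191163, minus strand), a small subunit needed for the complex to form and carried on the X chromosome, had 47.7, 38.3, 44.0 and 38.8 CPM in treated libraries, against 58.4, 51.4, 54.0 and 47.5 CPM in control libraries. The groups were apart for Ndufc1, and for Ndufa1 treated library 1 exceeded control library 4 by a small margin. Ndufc1 fell 1.27-fold (log2 fold change -0.35, SE 0.08, edgeR adjusted p = 0.00408) and Ndufa1 fell 1.25-fold (-0.32, SE 0.08, adjusted p = 0.00767). Ndufa11, a membrane subunit that contacts complex III in supercomplexes, had 47.2, 43.2, 48.8 and 44.4 CPM in treated libraries, against 62.0, 56.3, 54.3 and 49.9 CPM in control libraries. The groups were apart here too, and the fall was 1.21-fold (log2 fold change -0.28, SE 0.07, edgeR adjusted p = 0.00654).

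Ndufa3 and Ndufa8 fell as well (log2 fold changes of -0.21 and -0.17). Ndufa8 lay just inside the threshold (edgeR adjusted p = 0.0497) and Ndufc2 just outside it (log2 fold change -0.17, adjusted p = 0.0683). Ndufs5, Ndufa10 and Ndufa13 were not called, with log2 fold changes of -0.15, -0.09 and -0.08. Ndufa13 is also known as GRIM-19, which takes part in cell death.

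The distal membrane arm gave the most calls: 6 of 10 members fell and 0 rose, beside 18.1% and 18.7% of all tested genes. All 10 had values below 0 and the median was -0.22. After the correction for transcript length, though, 3 fell, beside 18.3% of all tested genes, and the median was -0.11. Ndufb2 (ENSMUSG00000002416, chr6:39592574-39603382, plus strand), a small accessory subunit of this arm, changed most of all 35. It had 28.7, 25.6, 27.9 and 22.2 CPM in treated libraries, against 42.1, 37.9, 34.8 and 32.7 CPM in control libraries. The highest treated library lay below the lowest control library, and the fall was 1.41-fold (log2 fold change -0.50, SE 0.09, 95% interval -0.70 to -0.30, edgeR adjusted p = 0.00122). Its exons share 146 bases with Braf on the other strand.

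Ndufb3 (ENSMUSG00000026032, chr1:58586384-58595964, plus strand), a single-span subunit of the arm, had 34.2, 31.5, 32.6 and 29.3 CPM in treated libraries, against 40.9, 38.2, 38.2 and 36.4 CPM in control libraries. Ndufb11 (ENSMUSG00000031059, chrX:20615326-20617619, minus strand), another X-linked single-span subunit, had 94.7, 90.3, 96.5 and 88.6 CPM in treated libraries, against 115, 110.3, 114 and 105 CPM in control libraries. The groups were apart for both. Ndufb3 fell by 16.9% (log2 fold change -0.27, SE 0.06, edgeR adjusted p = 0.00359) and Ndufb11 fell by 16.6% (log2 fold change -0.26, SE 0.04, adjusted p = 0.000644).

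Ndufb10, Ndufb6 and Ndufb5 fell with log2 fold changes of -0.23, -0.22 and -0.16. Ndufb8, Ndufb9 and Ndufb7 were not called, at -0.15, -0.14 and -0.10. Ndufb4, which was not called, had 6.41, 5.68, 7.06 and 6.92 CPM in treated libraries, against 9.29, 8.11, 8.27 and 6.21 CPM in control libraries. Control library 4 lay within the treated range, and the log2 fold change of -0.29 had an SE of 0.12 (95% interval -0.55 to -0.02, edgeR adjusted p = 0.0842). A pseudogene, Ndufb4c, is identical to it over 390 bases, so its low level is uncertain. Ndufab1, the mitochondrial acyl carrier protein, which serves fatty acid synthesis as well as complex I and stands in both arms, averaged 49.3 ± 1.98 CPM in treated and 50.4 ± 5.00 CPM in control libraries (SD, n = 4; log2 fold change -0.03, 95% interval -0.17 to 0.11, edgeR adjusted p = 0.743).

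**Figure D2:**
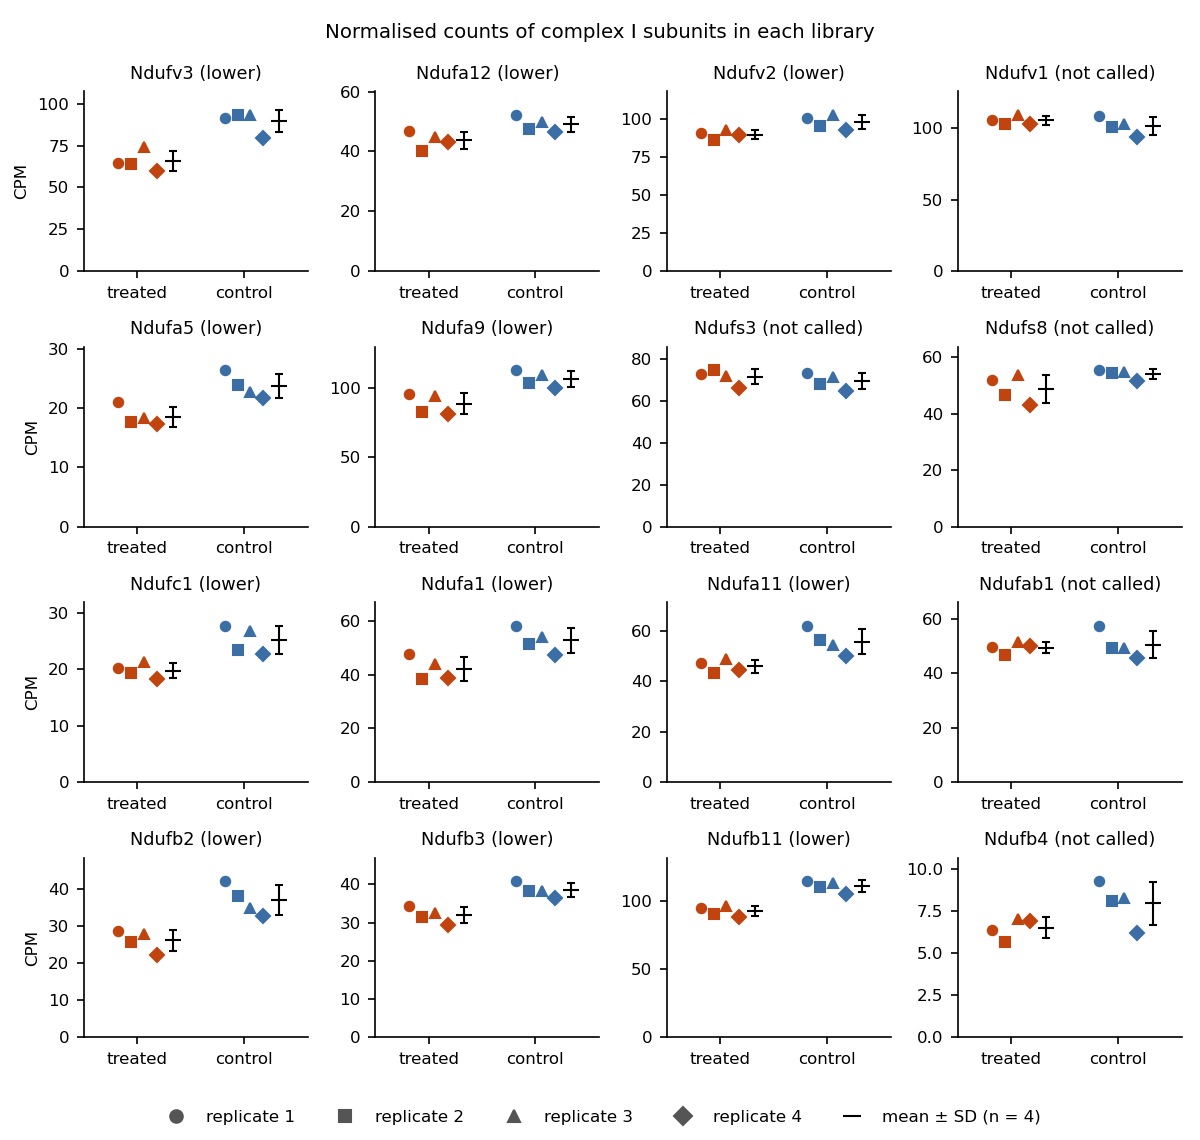
Normalised counts (CPM, vertical axes from 0) of 16 members in the 4 treated libraries, left, and the 4 control libraries, right, of each panel; symbols mark the replicate number and bars are mean ± SD (n = 4). Ndufb2, Ndufv3, Ndufa5 and Ndufc1 have groups that lie apart, whereas Ndufv1, Ndufs3 and Ndufab1 have groups that overlap.

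By kind of subunit, 15 of 29 accessory members (51.7%) fell, with a median of -0.17. Of the 6 core members 1 (16.7%), Ndufv2, fell, and their median was -0.09. In either kind 0 rose, beside 18.1% lower and 18.7% higher of all tested genes. In this model the core share was thus near that of all tested genes. With the replicate block 3 core members (50.0%) and 24 accessory members fell, beside 25.8% of all tested genes. With the block and the correction for transcript length, 2 core members fell and 2 rose (33.3% each), beside 26.4% and 25.9% of all tested genes. The difference between the kinds was not tested. The summed level of the 6 core members was 474, 454, 469 and 444 CPM in treated libraries 1 to 4, against 498, 472, 486 and 450.2 CPM in control libraries 1 to 4, and the groups overlapped. The core members with the most transcript per length were Ndufs7, Ndufs3 and Ndufv1, at 69.3, 68.4 and 63.6 CPM per kilobase in treated and 74.7, 66.4 and 61.2 CPM per kilobase in control libraries. Among all 35 the control level per kilobase ran from 8.21 for Ndufb4 to 126 for Ndufa1, so the members' messenger RNAs were far from equal in level.

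Summed over the 35, the level was 1959, 1819, 1984 and 1813 CPM in treated libraries 1 to 4, against 2232, 2115, 2145 and 1952 CPM in control libraries 1 to 4. Control library 4 lay below treated libraries 1 and 3, so the sums overlapped, although the treated mean of 1894 ± 90.7 CPM was 10.3% below the control mean of 2111 ± 117 CPM (SD, n = 4). Control library 1 was the highest of all 8 libraries for 27 members, and treated libraries 2 and 4 were the lowest for 14 members each. Control library 4 was the lowest for 5 members. Within a group, single members varied little: the coefficient of variation had a median of 5.72% in treated and 6.43% in control libraries, and its largest value was 16.1%, for Ndufb4 in control libraries.

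Taken by replicate number, the treated library lay below its control library for 34, 33, 30 and 26 of the 35 members in numbers 1 to 4. The median log2 difference was -0.22, -0.23, -0.13 and -0.08 in the same order. For 24 members the treated library was lower in all 4 numbers. The matching shares of all tested genes are not given here, and the labels do not say that equal numbers pair. The smaller step of number 4 came with the low level of control library 4. Without that library 23 members fell, beside 17.5% of all tested genes, and the members' median was -0.21. Without treated library 2 or treated library 4 the count was 10, and without control library 1 it was 13. The members' medians were then -0.127, -0.133 and -0.124, beside 0.005, 0.003 and 0.009 over all tested genes. Except for the fit without control library 4, the shares of all tested genes called are not given here. The 10 members Ndufb2, Ndufv3, Ndufa5, Ndufc1, Ndufa1, Ndufa11, Ndufb3, Ndufa9, Ndufb11 and Ndufa3 fell in each of the 8 fits that left out a single library. Of the others, Ndufb10 fell in 6 of those fits, Ndufb6 and Ndufb5 in 5, Ndufa8 in 3, and Ndufa12 and Ndufv2 in 2.

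**Figure D3:**
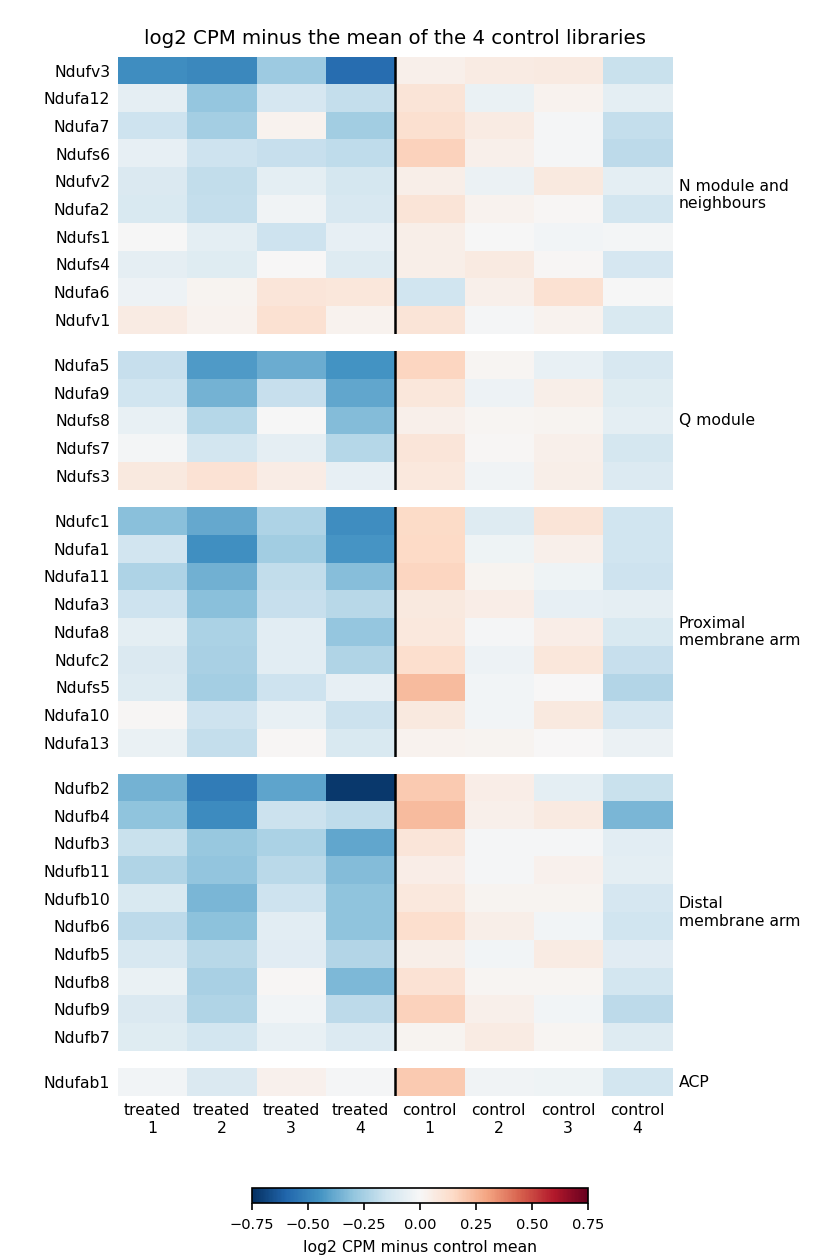
Level of each of the 35 members (rows, by place in the complex) in each library (columns, treated left of the line and control right of it), as log2 CPM minus the mean of the 4 control libraries; blue is lower and red is higher. Treated libraries 2 and 4 are the bluest columns, control library 1 is the reddest, and control library 4 is pale blue for most members.

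Transcript length moved with the change over the whole table. The members are short: their principal transcripts had a median of 861 bases (419 to 2590), against 2558 bases over all tested genes with a length. Tested genes were split by length into 10 groups of nearly equal size, and 17 members were in the shortest group, up to 817 bases. The 17 members in it had a median log2 fold change of -0.16, and 7 fell. All tested genes of that group had a median of -0.13, and 16.9% of them fell while 6.23% rose. In the next group, up to 1287 bases, the medians were -0.17 over 10 members, of which 6 fell, and -0.09 over all genes, of which 23.1% fell. In the longest group, which held no member, the median of all genes was 0.08. The part of length in the members' change was not tested.

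When a smooth trend on length was taken out of each library before the fit, 9 members fell and 0 rose, beside 18.3% and 17.2% of all tested genes, and the members' median was -0.08. The 9 were Ndufb2, Ndufv3, Ndufa5, Ndufc1, Ndufa11, Ndufb3, Ndufa9, Ndufb11 and Ndufv2. The change of Ndufv3, with a transcript of 1582 bases, was nearly the same on that scale (log2 fold change -0.43, SE 0.06, edgeR adjusted p = 0.000328), while that of Ndufb2, with 455 bases, was smaller (-0.36, SE 0.08, adjusted p = 0.00491). Ndufa1, Ndufa3, Ndufa8, Ndufa12, Ndufb5, Ndufb6 and Ndufb10 were then not called. By place in the complex, 3 of 10 fell in the distal membrane arm (median -0.11), 2 of 9 in the proximal membrane arm (-0.09), 2 of 10 in the N module and its neighbours (-0.04) and 2 of 5 in the Q module (-0.06). With the length trend and the replicate block together, 16 members fell, beside 26.4% of all genes, and Ndufa6, Ndufs3 and Ndufv1 rose, beside 25.9%. With length taken over all exons instead and no block, 9 members fell, beside 18.3% of all tested genes, but not the same 9. Ndufb3 and Ndufv2 were then not called, and Ndufb5 and Ndufs1 fell. Among the 35 members the correlation of length with the log2 fold change was weak (Pearson's r = 0.27, Spearman's rho = 0.32, across genes, which are not independent and share the 8 libraries). GC content differed less, with medians of 52.5% over the members and 50.3% over all tested genes. With a trend on GC taken out, 15 members fell, beside 18.5% of all tested genes.

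**Figure D4:**
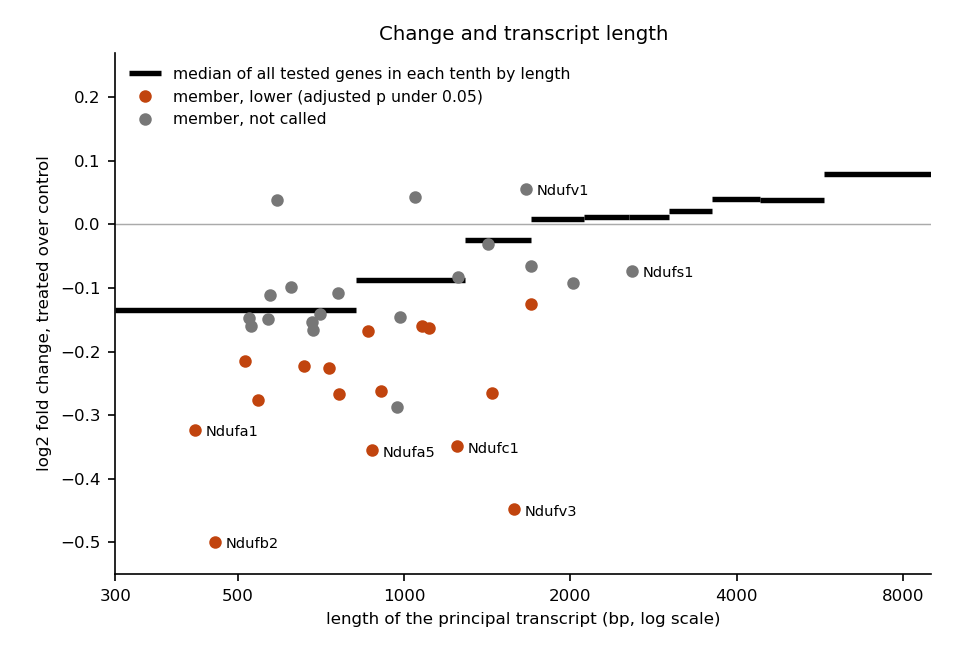
Log2 fold change of treated over control (vertical axis) against the length of the principal transcript (horizontal axis in bases, log scale, cut at both ends) for the 35 members (points), with the median of all tested genes in each of 10 groups by length (black bars). The bars climb from -0.13 in the shortest group to 0.08 in the longest, and most members lie at or below the bar of their own length.

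Complex I is completed by subunits that mitochondria encode, and these were lower too. Of 6 tested, 4 fell and 0 rose (median -0.39), beside 18.1% lower and 18.7% higher of all tested genes. The gene mt-Nd4l, with 13 counts in all, was not tested. In poly(A)-selected libraries the amount of a mitochondrial messenger RNA and the length of its tail cannot be told apart. mt-Nd1, which forms part of the ubiquinone channel, had 659.9, 626, 508 and 593 CPM in treated libraries, against 828, 792, 788 and 823 CPM in control libraries. The groups were far apart, and the gene fell by 26.1% (log2 fold change -0.44, SE 0.07, edgeR adjusted p = 0.000444). mt-Nd6, mt-Nd5 and mt-Nd4 fell with log2 fold changes of -0.56, -0.35 and -0.33, and mt-Nd2 and mt-Nd3 were not called (-0.18 and -0.45, edgeR adjusted p = 0.07 and 0.138). The order of libraries was not that of the nuclear members: the summed mitochondrial subunits were 1879, 1818, 1446 and 1689 CPM in treated libraries 1 to 4, against 2080.2, 2149.8, 2148 and 2310.5 CPM in control libraries 1 to 4. Treated library 3 was the highest treated library for the nuclear sum and the lowest for the mitochondrial sum, and control library 4 was the lowest control library for the nuclear sum and the highest for the mitochondrial sum.

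Separate proteins, the assembly factors, put complex I together. Of 18 such genes, 3 fell and 0 rose, a share of 16.7% beside 18.1% of all tested genes, and their median was -0.03. Dmac1, which helps join the distal membrane arm, averaged 23.1 ± 1.72 CPM in treated and 29.0 ± 3.87 CPM in control libraries (SD, n = 4; log2 fold change -0.33, edgeR adjusted p = 0.0146). Tmem126b, of the mitochondrial complex I assembly complex for the proximal arm, averaged 13.9 ± 0.362 and 17.4 ± 0.798 CPM in treated and control libraries, with no overlap (log2 fold change -0.32, edgeR adjusted p = 0.00104). Dmac2 fell with a log2 fold change of -0.21. Ndufaf4 had the highest log2 fold change, 0.31, and was not called (edgeR adjusted p = 0.115).

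Of the other complexes of the chain, 19 of 25 nuclear genes listed for complexes II, III and IV fell (median -0.23). The 25 include Cycs, the mobile carrier cytochrome c, which is counted among the 19. Of 17 genes listed for ATP synthase, which include its inhibitory factor Atpif1, 13 fell (median -0.26). In each list 0 rose, beside 18.1% lower and 18.7% higher of all tested genes. After the correction for transcript length, 13 of the 25 fell and 1 rose (median -0.14). Of the 17, 9 then fell and 0 rose (median -0.15), beside 18.3% lower and 17.2% higher of all tested genes. The difference from complex I was not tested. Of the 3 supercomplex factors, Higd1a, which is induced by low oxygen, fell 1.51-fold, to 75.9 ± 9.01 CPM in treated cells, against 115 ± 12.6 CPM in control cells (SD, n = 4; edgeR adjusted p = 0.000423). Ubiquinone is also reduced by other enzymes, and of their 12 genes 3 fell and 1 rose, beside the same shares of all tested genes. The 3 were subunits of complex II, Sdhd (log2 fold change -0.43), Sdhc (-0.26) and Sdha (-0.15). Gpd2, the mitochondrial glycerol-3-phosphate dehydrogenase, which passes cytosolic electrons to ubiquinone without complex I, rose 1.25-fold, to 38.5 ± 0.469 CPM in treated cells, against 30.7 ± 1.75 CPM in control cells (edgeR adjusted p = 0.000381). The other 8 were not called.

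The iron-sulfur clusters of complex I are made by a separate mitochondrial pathway, whose genes went both ways: 2 of 15 fell and 6 rose (median 0.11), beside 18.1% and 18.7% of all tested genes. Fdxr, the reductase that feeds electrons to cluster synthesis, fell by 33.4%, and Isca1, which takes part in inserting clusters into target proteins, fell with a log2 fold change of -0.29. Hspa9, the chaperone that hands clusters on, rose 1.48-fold, to 593 ± 15.6 CPM in treated cells, against 400.3 ± 26.4 CPM in control cells (SD, n = 4; edgeR adjusted p = 4.64e-06). Slc25a28, which brings iron into mitochondria, rose with a log2 fold change of 0.32.

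Of 15 tested regulators of respiratory chain genes, 2 fell and 5 rose (median -0.01), beside 18.1% and 18.7% of all tested genes. Yy1 and Nrf1, whose letters were searched in the promoters above, fell with log2 fold changes of -0.25 (SE 0.03, edgeR adjusted p = 0.000175) and -0.20 (SE 0.04, adjusted p = 0.00307), with no overlap between the groups. Yy1 averaged 151 ± 2.62 CPM in treated and 180.0 ± 2.22 CPM in control libraries, and Nrf1 averaged 71.7 ± 2.26 and 82.5 ± 3.26 CPM (SD, n = 4). The GABP and ERR genes of the list, which go with the other letters searched, were not among the 2 that fell. Their values are not given here. The 5 rises were led by Myc, a growth-promoting factor (log2 fold change 0.53), Hif1a, the low-oxygen factor (0.34), and Pprc1, a coactivator (0.34). Ppargc1a, the coactivator best known for mitochondrial biogenesis, had 19 counts in all and was not tested. Binding of these factors and subunit protein were not measured.

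**Figure D5:**
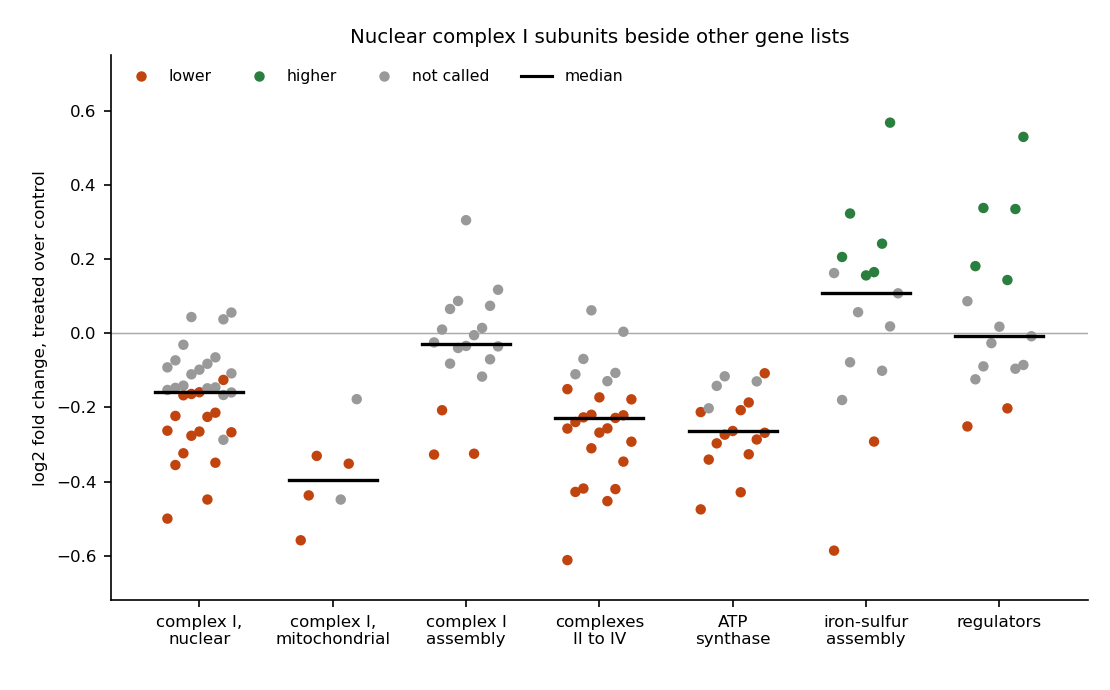
Log2 fold change of treated over control (vertical axis) of each tested gene (points) in the nuclear complex I subunits and 6 other lists (horizontal axis); orange marks genes that fell, green genes that rose and grey genes not called, and bars are list medians. Values are without the correction for transcript length. The nuclear complex I median of -0.16 lies between those of the assembly factors (-0.03) and of ATP synthase (-0.26). Among these 7 lists, rises appear only in the iron-sulfur assembly and regulator lists.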

How the data were processed

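The 8 samples were sequenced as stranded poly(A) libraries, per the labels' protocols. The authors deposited whole-number, unnormalized counts of reads per Ensembl gene. The submitters' processing notes name STAR, featureCounts, DESeq2, deepTools and GRCm38, without versions or roles. Strand use and the handling of multi-matching reads in counting are not given in the sources at hand. Subunit genes with a near-identical copy are therefore uncertain, such as Ndufa12, whose pseudogene Gm15920 held the largest share among pseudogene copies. So are those with an antisense neighbour, such as Ndufb2 with Braf or Ndufb11 with Rbm10. The largest overlap by share of exon bases was that of Ndufb6 with Smim27 (39.0%). Ndufb5 shares 616 bases with Mrpl47, which held 5713 counts beside 21219 for Ndufb5.

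Symbols, positions and transcript lengths came from GENCODE M21, which matched 53360 of 53465 IDs (the other 105 held 0.0063% of counts). Genes passing filterByExpr were TMM-scaled and fitted in edgeR 4.0.16 under R 4.3.3, treated over control. Its quasi-likelihood p-values were Benjamini-Hochberg adjusted over 14443 genes; "fell" and "rose" mark adjusted values under 0.05. SEs came from the F statistic, and CPM per kilobase divides by the APPRIS principal transcript. Because no label ties replicates to separate mice or cultures, the p-values cover only the spread among these libraries, which may be technical. Libraries of a group differed beyond sampling noise.

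Deviations of same-numbered treated and control libraries had correlations across genes of 0.384, 0.145, 0.106 and 0.264 for numbers 1 to 4. Treated library 2 gave a higher value, 0.208, with control library 4. The numbers served as pairs in the alternative fits with a replicate block and in the comparisons by number, without word from the labels. Because the correlations come from the same counts, they cannot establish the pairing.

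The members and lists were chosen with earlier results of these data known. Full values are given for up to 3 called members and the core subunits of each module, and up to 4 called genes, by size, are named of each other list. Nrf1, Ppargc1a, Cycs, Atpif1, Gm15920, Braf, Rbm10, Smim27 and Mrpl47 were named after their values were seen. Coa1 and Sqrdl matched no ID, and some genes of the lists are not reported here. Alternatives were RLE, upper quartile or no scaling, no filter, DESeq2 1.42.0, limma-voom 3.58.1, a test beyond 1.2-fold, the replicate block, lowess offsets on length or GC, and leaving out each library. Length by all exons was added after seeing the data.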

Additional observations from a re-analysis of the deposited data

Results flagged for a closer look

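Ndufv3, the N module subunit with the second largest fall, had 1 control library far from the others. Control library 4 stood at 79.7 CPM, while the other 3 control libraries lay between 91.6 and 93.5 CPM, and its gap to them took up 0.859 of the group's range; that is past Dixon's 95% limit for 4 values. This was 1 of 70 groups checked (35 members in both conditions), and chance alone flags about 1 in 20. All 4 treated libraries, between 60.0 and 73.9 CPM, lay below that library. Control library 4 was also the lowest of the 8 libraries for 5 other members. Ndufv3 fell in all 8 fits that left out a single library.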

How the results depend on the processing

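Of the 35 members, 16 fell and 0 rose in the model given above. RLE, upper quartile or no scaling, no filter on low counts, DESeq2, limma-voom and the GC offset gave between 14 and 16 lower and 0 higher, with medians between -0.17 and -0.14. Of all tested genes 18.1% were lower in the model given above, 16.3% with DESeq2 and 18.5% with the GC offset. The shares for the other settings just named are not given here. Values outside these ranges of members lower and of medians were as follows. With the replicate block, that is with the numbers taken to pair the libraries, 27 fell, beside 25.8% of all tested genes. With the block and the GC offset 29 fell, beside 26.0%. In either 0 rose, beside 26.6% and 26.1% of all tested genes, and the median with the block was -0.16. The test beyond 1.2-fold called 2 members lower, with 706 genes lower and 875 higher over the whole table, a stricter rule by construction. With the length offset 9 fell, beside 18.3% of all tested genes, and the median was -0.08 (-0.0792). By all exons 9 fell too, beside 18.3%, but Ndufb3 and Ndufv2 were not called, and Ndufb5 and Ndufs1 fell in their place. With length offset and block the median was -0.08 (-0.0798), 16 fell and 3 rose, beside 26.4% and 25.9% of all tested genes. Leaving out single libraries gave 10 to 23 lower and 0 higher, with medians between -0.21 and -0.12. The lowest count came without treated library 2 or 4 and the highest without control library 4. In the fit without control library 4, 17.5% of all tested genes were lower, and the shares in the other such fits are not given here. The cause of these shifts was not tested.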
